A study of Mus musculus with 16 samples.

Results

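The genes described here are the Rab GTPases and the Rab-named proteins that bind or regulate them. They were chosen by a rule on names, set with earlier results of these data known. The rule took every listed gene whose symbol starts with Rab followed by a digit. It gave 59 of the 13277 genes in the deposited tables. Of these, 49 are named as Rab GTPases, 9 are named as regulators or interactors of Rabs, and 1, Rab10os, is an opposite-strand transcript. RNA came from whole striatum of 8 adult mice that carried both the Aldh1l1-Cre/ERT2 transgene and the RiboTag allele, the first from an FVB line backcrossed to C57BL/6N and the second on a B6 background. The Aldh1l1 promoter drives a drug-inducible Cre in astrocytes, and Cre switches on a haemagglutinin (HA) tag on a ribosomal protein. An adeno-associated virus (AAV) for a control protein was given to 4 of the mice (Y481, Y482, Y483 and Y485). The other 4 (Y486, Y487, Y489 and Y490) received an AAV for hPMCA2w/b, a plasma membrane calcium pump that suppresses calcium signals, called PMCA below. Control and PMCA mice carried the same alleles. The sources used here do not give the promoter of the viruses, the sex of the mice or the schedule of the inducing drug.

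Each mouse gave an input library, made from cleared tissue lysate, and an IP library, made from RNA precipitated with the HA-tagged ribosomes. The design thus held 4 groups of 4 libraries: control input, control IP, PMCA input and PMCA IP. The question behind the study, per its title, is how a reduction of calcium signals in striatal astrocytes acts on striatal circuits and behaviour. For the Rab genes the design allowed 3 kinds of comparison: IP against input in each treatment, PMCA against control in each fraction, and the difference between those effects.

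Rab proteins are small GTPases that mark membranes. Guanine nucleotide exchange factors (GEFs) load a Rab with GTP, the GTP form recruits effectors that tether, move or fuse vesicles, GTPase-activating proteins (GAPs) end the cycle, and GDP dissociation inhibitor (GDI) lifts the GDP form off the membrane. Each step of membrane traffic has its own Rabs, from Rab1 between the endoplasmic reticulum and the Golgi to Rab5 on early endosomes, Rab11 on recycling endosomes, Rab7 on late endosomes and Rab3 on synaptic vesicles. In astrocytes this traffic sets how many transporters, receptors and channels sit at the cell surface.

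Several Rabs exist as close paralogs, and Rab6a with Rab6b and Rab9 with Rab9b were the pairs with the largest within-mouse differences in the values that follow. Their start regions are shown here for that reason, from 250 bases before to 50 bases after the RefSeq start on GRCm38.p6, read 5′ to 3′ on the gene's strand. The windows lie at chr7:100607336-100607635 (plus strand), chr9:103111824-103112123 (plus strand), chrX:166479818-166480117 (minus strand) and chrX:136868507-136868806 (minus strand). Capitals mark the GC box (GGGCGG, or CCGCCC on the other strand) and the CCAAT box (CCAAT, or ATTGG on the other strand). The 2 motifs share no letters unless their matches adjoin.
Rab6a: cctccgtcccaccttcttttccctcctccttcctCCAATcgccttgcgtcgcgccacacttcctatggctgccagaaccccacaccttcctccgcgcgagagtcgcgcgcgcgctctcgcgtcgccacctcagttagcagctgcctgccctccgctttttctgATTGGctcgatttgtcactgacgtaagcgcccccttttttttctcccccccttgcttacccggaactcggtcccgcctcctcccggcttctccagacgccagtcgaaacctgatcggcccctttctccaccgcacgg
Rab6b: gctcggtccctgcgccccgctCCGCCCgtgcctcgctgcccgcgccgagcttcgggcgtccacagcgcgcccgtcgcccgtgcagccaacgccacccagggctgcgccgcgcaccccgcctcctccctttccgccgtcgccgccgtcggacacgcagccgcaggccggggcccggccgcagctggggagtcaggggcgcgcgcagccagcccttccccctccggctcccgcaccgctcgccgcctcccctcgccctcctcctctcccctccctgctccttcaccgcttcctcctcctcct
Rab9: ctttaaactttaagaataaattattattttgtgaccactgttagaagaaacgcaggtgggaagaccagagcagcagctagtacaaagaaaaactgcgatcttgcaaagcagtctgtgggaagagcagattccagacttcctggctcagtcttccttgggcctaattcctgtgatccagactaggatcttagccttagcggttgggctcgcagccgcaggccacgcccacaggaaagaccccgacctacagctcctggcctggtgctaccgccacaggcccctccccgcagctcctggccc
Rab9b: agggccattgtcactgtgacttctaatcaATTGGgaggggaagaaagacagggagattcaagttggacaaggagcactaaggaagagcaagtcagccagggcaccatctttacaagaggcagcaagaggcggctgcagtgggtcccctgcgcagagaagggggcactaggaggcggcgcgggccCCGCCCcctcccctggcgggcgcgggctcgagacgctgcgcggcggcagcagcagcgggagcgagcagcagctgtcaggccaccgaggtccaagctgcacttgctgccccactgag
The Rab6a window held 29 CpG pairs, 2 CCAAT boxes and 0 GC boxes, and the Rab6b window held 42 CpG pairs, 1 GC box and 0 CCAAT boxes. The Rab9 window held 9 CpG pairs and neither motif, and the Rab9b window held 17 CpG pairs with 1 match of each motif. RefSeq had windows for 49 of the 59 genes, 67 windows in all since some genes have several starts. A GC box was present in 48 of the 67 (71.6%), against 35.7% of all 32851 windows in the table, and a CCAAT box in 27 (40.3%), against 37.4%. The median CpG count was 20 in the Rab windows and 7 in all windows. All windows cover 27025 genes, not only the 13277 listed in these data. These shares therefore do not set the Rab genes apart from other genes detected here. The windows of genes higher in control IP (median 24.5 CpG, 12 windows) and of genes lower there (median 18, 17 windows) spanned overlapping ranges, from 9 to 45 and from 3 to 44. These matches describe letters, not binding.

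The 16 libraries held 198462 to 686343 reads over the listed genes, and the Rab-named genes took 1077 to 3178 of these reads. Rab genes made up 0.551% ± 0.009 of reads in control input, 0.443% ± 0.025 in control IP, 0.584% ± 0.013 in PMCA input and 0.445% ± 0.028 in PMCA IP (mean ± SD, n = 4 each). The summed level of 12 astrocyte markers was 5794 to 6123 reads scaled per 1e6 library reads (CPM) in control input and 98450 to 105500 in control IP, and all 12 were called higher in IP. The summed level of 11 neuronal markers was 7358 to 9373 CPM in control input and 543 to 641 in control IP, and all 11 were called lower. Oligodendrocyte markers were lower in control IP for 7 of 8 genes and microglial markers for 7 of 7 tested genes, but in PMCA mice for 4 of 7 microglial genes. Of 2 tested endothelial markers, Slco1c1 was higher and Flt1 lower in control IP. The summed level of the 5 endothelial markers was 58.8 to 116 CPM in control input and 207 to 235 in control IP, where Cdh5 was at 0. That sum does not stand for each endothelial marker. In bulk samples, fewer cells of a type and less RNA per cell cannot be told apart. Levels below are log2 CPM, a scale on which 1 unit is a doubling, and values of different genes are not compared since they are not corrected for transcript length.

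In control mice, 24 of the 48 Rab-named genes with enough reads to test differed between IP and input (limma, Benjamini-Hochberg adjusted p under 0.05 over 8091 genes). Of these, 12 were higher in IP (25% of the tested members, against 27.3% of all tested genes called higher) and 12 were lower (against 26.1%). The members as a whole therefore sat near the background, with a median IP minus input difference of 0.18 against 0.06 over all genes. The role lists were set with earlier results of these data known. By role, of the 6 early endosome Rabs, 5 were higher (median 1.14), and of the 4 tested Rabs of regulated exocytosis all 4 were lower (median -3.62). Of the 6 recycling endosome Rabs, 0 were higher and 1 was lower. Among the other roles, 3 were higher and 2 lower of 12 in secretory traffic, 2 and 1 of 5 on late endosomes and lysosomes, 2 and 2 of 8 at the plasma membrane and cilium, and 0 and 2 of 7 regulators. Rab3b, Rab27b, Rab9b, Rab40b and Rab40c had enough reads to test through input libraries alone, and Rab13 through IP libraries alone. For these genes the filter favoured the direction found, so the counts rest partly on the filter. A difference of at least 2-fold was found for 9 of the higher and 11 of the lower genes. The share of all tested genes at that cut was not counted, so these counts have no background.

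In PMCA mice, 23 of the 48 differed: 10 were higher (against 24.9% of all tested genes) and 13 lower (against 24.8%). Higher in both treatments were 8 genes (Rab5a, Rab5c, Rab7, Rab9, Rab10, Rab21, Rab31 and Rab33b), and lower in both were 12 (Rab3a, Rab3b, Rab3c, Rab6b, Rab9b, Rab11fip2, Rab11fip3, Rab15, Rab27b, Rab39b, Rab40b and Rab40c). The share of all tested genes called in both treatments was not counted, so these counts have no background and are not a trait of the Rab genes. Rab1, Rab5b, Rab23 and Rab30 were called in control mice alone, and Rab3ip, Rab13 and Rab18 in PMCA mice alone, but the difference between treatments was called for 0 of the 48 (the interaction values are given with the treatment results). When libraries were scaled to their total reads, the median of all genes moved to -0.17 in control and -0.26 in PMCA mice, and the split became 10 higher and 15 lower in control and 7 higher and 16 lower in PMCA mice. Under that scaling 22.9% of all tested genes were higher and 31.2% lower in control mice, and 19.2% and 31.7% in PMCA mice.

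**Figure D1:**
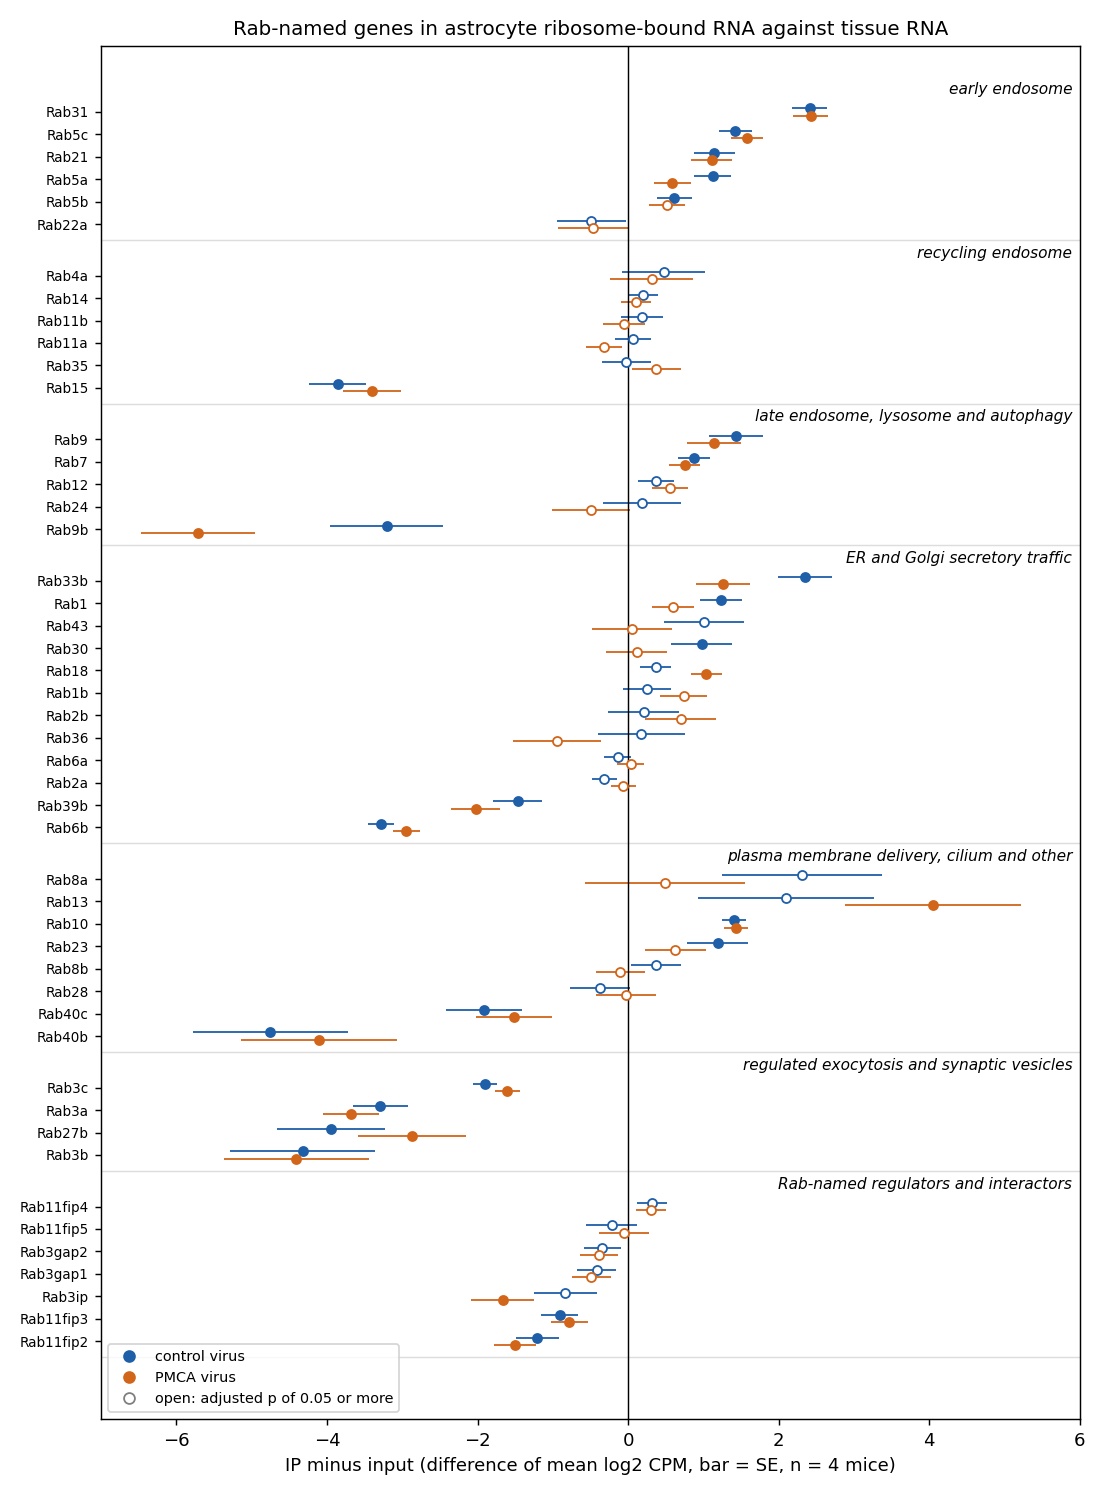
IP minus input for the 48 tested Rab-named genes, by role: the horizontal axis is the difference of mean log2 CPM with its SE, blue for control and orange for PMCA mice (n = 4 each), filled where the adjusted p is under 0.05. Early endosome Rabs lie mostly to the right of 0, recycling endosome Rabs other than Rab15 near 0, and the 4 exocytosis Rabs to the left.

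The plot by role shows that control and PMCA points lie close together for most genes and that the widest bars belong to genes with few reads, such as Rab13, Rab40b and Rab9b.

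Among the early endosome Rabs, Rab31 had the largest difference. Rab31, which moves cargo between the trans-Golgi network and endosomes, measured 6.08, 6.25, 5.71 and 6.15 in control input and 8.66, 8.58, 8.35 and 8.23 in control IP (mice in the order Y481, Y482, Y483, Y485, as for all control values). In PMCA mice it measured 5.46, 5.76, 5.23 and 6.58 in input and 8.16, 8.03, 8.28 and 8.25 in IP (in the order Y486, Y487, Y489, Y490, as for all PMCA values). Every IP library was above every input library. The difference was 2.41 (SE 0.23, 5.32-fold, adjusted p = 1.11e-09) in control and 2.42 (SE 0.23, adjusted p = 1.18e-09) in PMCA mice.

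Rab5a, Rab5b and Rab5c drive the fusion of early endosomes, and all 3 were higher in control IP. Rab5c measured 6.41, 6.60, 6.80 and 5.91 in control input against 8.12, 7.97, 7.88 and 7.46 in control IP. The groups did not overlap, and the difference was 1.43 (SE 0.21, adjusted p = 3.03e-06) in control and 1.58 (SE 0.21, adjusted p = 6.69e-07) in PMCA mice. Rab5a measured 5.87, 6.17, 6.77 and 6.31 in control input against 7.40, 7.51, 7.47 and 7.23 in control IP, a difference of 1.12 (SE 0.25). In PMCA mice its input values spread from 5.81 to 7.08 and overlapped the IP values, and the difference was 0.59 (SE 0.25, adjusted p = 0.0489). That call was lost when Y489 was left out (0.29, adjusted p = 0.367), and also without Y482, Y483, Y485 or Y486 (adjusted p = 0.0516 to 0.125). Rab5b differed by 0.61 (SE 0.23) in control mice and by 0.52 (SE 0.23, adjusted p = 0.0697) in PMCA mice. The control call of Rab5b was lost without Y481 (0.35, adjusted p = 0.263) or Y482 (0.61, adjusted p = 0.0731). Rab21, which carries integrins through early endosomes, was higher by 1.15 (SE 0.27) in control and 1.11 (SE 0.27) in PMCA mice, in 8 of 8 mice. Rab22a, a paralog of Rab31, went the other way without passing the test: -0.49 (SE 0.46, adjusted p = 0.385) in control mice.

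Recycling endosome Rabs return internalised cargo to the cell surface. Rab11a, the GTPase of the slow recycling route, measured 6.41, 6.94, 7.30 and 7.28 in control input and 6.97, 7.26, 7.02 and 6.93 in control IP. The groups overlapped, and the difference was 0.06 (SE 0.24, 95% interval -0.43 to 0.56). Its sign was not stable: it was -0.10 without Y481, -0.02 without Y482, -0.15 with total-read scaling and -0.01 with voom, none of them called. In PMCA mice Rab11a measured 6.76, 6.63, 7.53 and 6.41 in input and 6.51, 6.73, 6.58 and 6.22 in IP, a difference of -0.32 (SE 0.24, adjusted p = 0.279), which passed the test with total-read scaling (-0.59, adjusted p = 0.0420). Its paralog Rab11b differed by 0.18 (SE 0.28) in control and -0.05 (SE 0.28) in PMCA mice. Rab14, which acts between the Golgi and endosomes, Rab35, a Rab of fast recycling, and Rab4a, another of the fast route, differed by 0.19, -0.02 and 0.47 in control mice, and none passed the test in either treatment.

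Rab15 was the exception among the recycling endosome Rabs. It measured 7.37, 7.69, 7.83 and 8.06 in control input and 3.18, 5.35, 3.21 and 3.76 in control IP. All input libraries were above all IP libraries, and mouse Y482 was the highest of the IP group. The difference was -3.86 (SE 0.38, 14.5-fold lower, adjusted p = 4.21e-09) in control and -3.40 (SE 0.38, adjusted p = 4.52e-08) in PMCA mice. The neuronal markers listed above were lower in IP too, and their part in the results of Rab15 and of the exocytosis Rabs was not tested.

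Late endosome and lysosome Rabs split by gene. Rab7, which directs late endosomes to lysosomes, measured 7.37, 7.36, 7.23 and 7.37 in control input and 8.27, 7.97, 8.16 and 8.43 in control IP, with no overlap. It was higher by 0.87 (SE 0.21, adjusted p = 0.00107) in control and 0.75 (SE 0.21, adjusted p = 0.0046) in PMCA mice. Rab9, which retrieves receptors from late endosomes to the Golgi, measured 4.99, 5.26, 4.72 and 4.93 in control input and 6.76, 5.88, 6.48 and 6.51 in control IP. It was higher by 1.43 (SE 0.36) in control and 1.15 (SE 0.36) in PMCA mice, and the PMCA call was lost without Y489 (0.91, adjusted p = 0.0638). Rab12 and Rab24, linked to degradation and autophagy, did not pass the test in either treatment.

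Rab9b, the paralog of Rab9, was lower in IP. It measured 5.18, 5.89, 5.30 and 5.78 in control input and 2.88, 3.26, 1.48 and 1.69 in control IP, and the difference was -3.21 (SE 0.75, adjusted p = 0.000747). In PMCA IP it had 2 reads in all, both in Y486, against 77 reads in PMCA input. Scaled to library size, the PMCA input level was 49.8 times the IP level, with a 95% counting interval of 13.3 to 419. A counting interval pools the reads of the mice in a group and leaves out the spread between them. In control mice the same ratio was 8.84 (interval 4.47 to 19.4), from 57 and 10 reads.

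In secretory traffic, Rab33b, a Golgi Rab that also binds the autophagy machinery, measured 3.81, 4.43, 5.91 and 4.29 in control input and 7.06, 7.15, 6.92 and 6.70 in control IP. All IP libraries were above all input libraries, and the difference was 2.35 (SE 0.36, 5.09-fold, adjusted p = 3.49e-06). In PMCA mice it was 1.26 (SE 0.36, adjusted p = 0.00452). Rab1, which acts between the endoplasmic reticulum and the Golgi, was higher by 1.23 (SE 0.27, adjusted p = 0.000513) in control mice, where Y481 input (5.35) was far below the other inputs (6.78 to 7.06). Without Y481 the difference was 0.80 (adjusted p = 0.00454). In PMCA mice Rab1 differed by 0.60 (SE 0.27, adjusted p = 0.0744), a call gained without Y481 (adjusted p = 0.0129) and with voom (0.0279), and IP exceeded input in 8 of 8 mice. Rab30, of the Golgi, was called in control mice (0.98, SE 0.40), but not without Y482 (0.61, adjusted p = 0.277) or Y481 (0.80, adjusted p = 0.158), nor without Y487 or Y489 (adjusted p = 0.0550 and 0.0516). Rab18, of the endoplasmic reticulum and lipid droplets, was higher by 1.04 (SE 0.20, adjusted p = 0.000131) in PMCA mice and by 0.37 (SE 0.20, adjusted p = 0.133) in control mice.

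Rab6b, the brain-enriched form of a Rab that moves vesicles from the Golgi, had the smallest adjusted p of all members. It measured 9.50, 9.33, 9.42 and 9.35 in control input and 5.94, 5.88, 6.37 and 6.29 in control IP. In PMCA mice the values were 9.52, 9.45, 9.32 and 9.15 in input and 6.11, 6.18, 6.55 and 6.83 in IP. Input and IP were far apart in every mouse, with a difference of -3.28 (SE 0.17, 9.73-fold lower, adjusted p = 8.18e-15) in control and -2.95 (SE 0.17, adjusted p = 9.01e-14) in PMCA mice. Rab6a, the widely expressed form, measured 8.07, 7.98, 7.83 and 8.31 in control input and 8.00, 7.89, 7.99 and 7.75 in control IP. Its groups overlapped, with a difference of -0.14 (SE 0.18, 95% interval -0.51 to 0.23). Rab39b, a Rab tied to X-linked intellectual disability, was lower, with differences of -1.46 (SE 0.32) in control and -2.02 (SE 0.32) in PMCA mice. Rab1b, Rab2a, Rab2b, Rab36 and Rab43 did not pass the test in either treatment, with control differences from -0.32 (Rab2a) to 1.003 (Rab43).

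**Figure D2:**
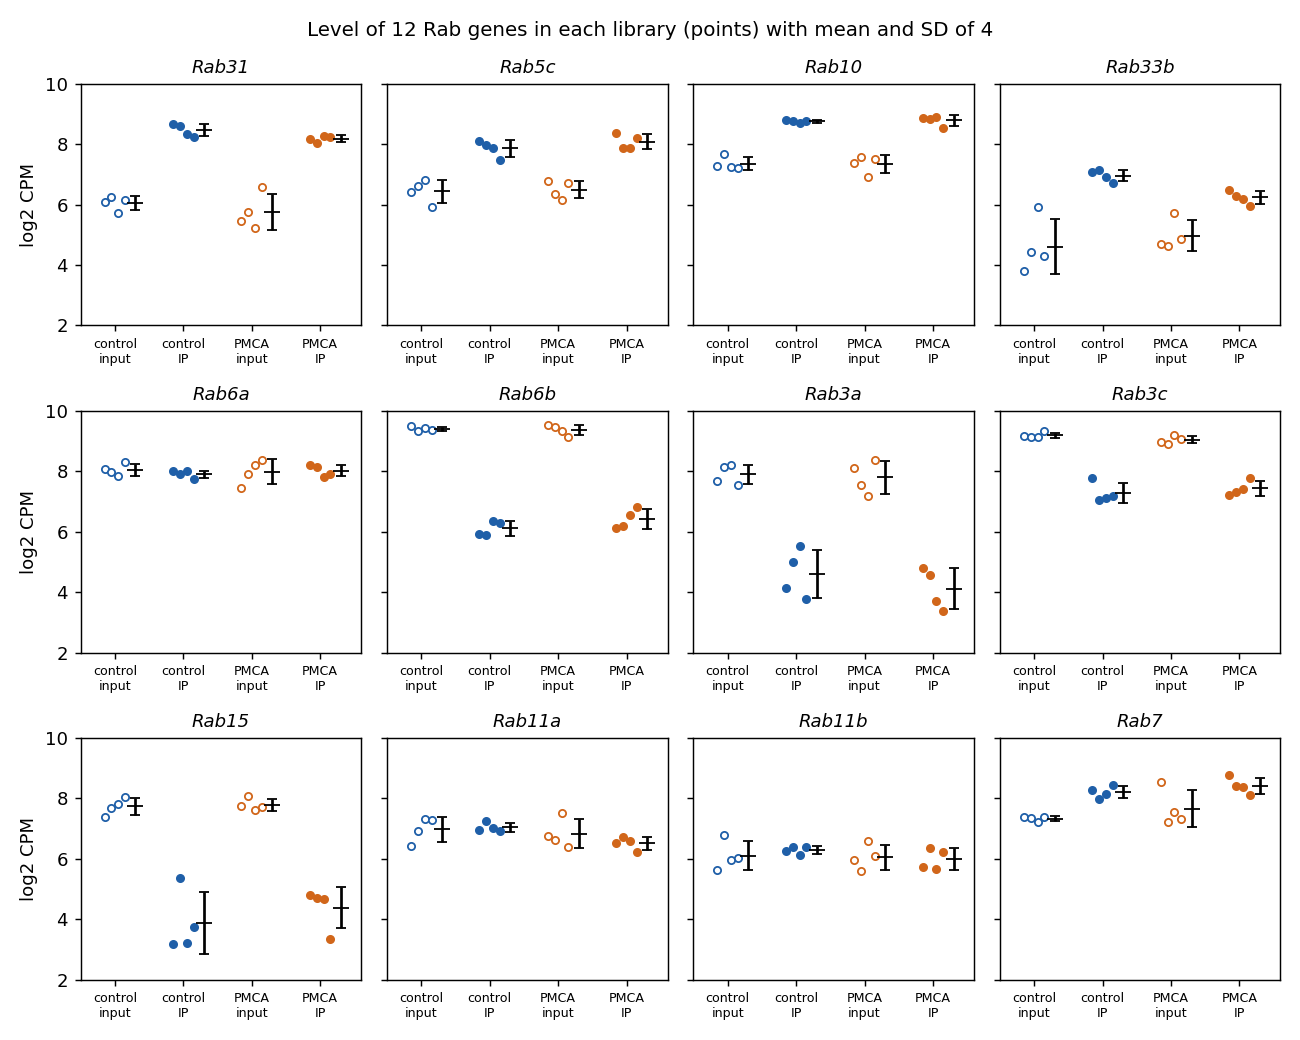
Level of 12 Rab genes in each library: the vertical axis is log2 CPM, open points are input and filled points IP libraries, blue for control and orange for PMCA mice, and black bars give the mean and SD of 4 libraries. Rab31, Rab5c, Rab10 and Rab33b are higher in IP, Rab6b, Rab3a, Rab3c and Rab15 lower, and Rab6a, Rab11a and Rab11b overlap.

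The plot of levels by library sets the 2 Rab6 genes side by side: the Rab6b points are lower in IP, and the Rab6a points overlap.

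Rabs of regulated exocytosis bring vesicles to the release site, and Rab3a is the main Rab of synaptic vesicles. Rab3a measured 7.68, 8.14, 8.20 and 7.55 in control input and 4.13, 4.9986, 5.52 and 3.76 in control IP. The groups did not overlap, and the difference was -3.29 (SE 0.37, 9.79-fold lower, adjusted p = 3.34e-08) in control and -3.68 (SE 0.37, adjusted p = 5.26e-09) in PMCA mice. Rab3c measured 9.16, 9.13, 9.14 and 9.32 in control input and 7.79, 7.05, 7.11 and 7.18 in control IP. It was lower by less than Rab3a: -1.90 (SE 0.16, 3.73-fold lower, adjusted p = 1.73e-10) in control and -1.60 (SE 0.16) in PMCA mice. In PMCA IP its values were 7.23, 7.33, 7.40 and 7.78, from 67 to 94 reads per library.

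The other exocytosis Rabs had few IP reads. Rab27b, a Rab of secretory granules, had 64 reads in control input and 9 in control IP, and 79 and 15 in PMCA mice, with differences of -3.95 (SE 0.72) and -2.87 (SE 0.72). Rab3b had 45 reads in control input and 5 in control IP, a ratio of 13.9 after scaling (counting interval 5.56 to 45.0). In PMCA mice Rab3b had 51 and 3 reads, a ratio of 22.0 (interval 7.11 to 110). Rab27a was too low to test, with 14 reads in control input and 0 in control IP. The 95% counting interval of its control input over IP ratio starts at 5.14. In PMCA mice Rab27a had 13 and 7 reads, a ratio of 2.40 (interval 0.891 to 7.11). Rab26 was not tested either (11 and 5 reads in control, 31 and 7 in PMCA mice). Its input over IP ratio was 3.41 (interval 1.092 to 12.52) in control and 5.729 (interval 2.475 to 15.41) in PMCA mice. Rab3d, also not tested, went the other way, with 3 and 12 reads in control and 3 and 16 in PMCA mice. Its IP over input ratio was 2.581 (interval 0.6964 to 14.25) in control and 4.123 (interval 1.18 to 22.08) in PMCA mice.

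Among Rabs of the plasma membrane and cilium, Rab10, which delivers glucose transporters and other cargo to the surface, measured 7.29, 7.66, 7.26 and 7.20 in control input and 8.81, 8.77, 8.69 and 8.76 in control IP. The IP values lay within a narrow band above all inputs, and the difference was 1.41 (SE 0.16, 2.65-fold, adjusted p = 4.09e-08) in control and 1.43 (SE 0.16, adjusted p = 3.3e-08) in PMCA mice. Rab23, an inhibitor of hedgehog signalling, was higher by 1.19 (SE 0.40, adjusted p = 0.0144) in control mice, and the call was lost without Y481 (1.05, adjusted p = 0.0633) or Y483 (0.94, adjusted p = 0.104). Rab13, of tight junctions, had 5 reads in PMCA input and 60 in PMCA IP, a ratio of 9.28 after scaling (counting interval 3.76 to 29.6), and 10 and 34 in control mice, a ratio of 2.19 (interval 1.06 to 4.98). The control difference of Rab13 was called without Y482 (3.34, adjusted p = 0.0385).

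Rab8a, a Rab of the cilium and exocytic vesicles, had 0, 9, 17 and 17 reads in the control inputs and 61, 31, 31 and 24 in control IP. The fitted difference of 2.31 (SE 1.07, adjusted p = 0.0849) includes the Y481 input at 0. Without Y481 the difference fell to 0.63 and was not called. With all mice it passed the test with a prior count of 2 reads (1.54, adjusted p = 0.0137) and with voom (1.59, adjusted p = 0.00725). The summed reads, Y481 included, gave a ratio of 2.20 (counting interval 1.56 to 3.17). Rab8b and Rab28 did not pass the test. Rab40b and Rab40c, which recruit a ubiquitin ligase, were lower. Rab40b had 40 reads in control input and 4 in control IP, all in Y483, and 44 and 5 reads in PMCA mice. Rab40c differed by -1.92 (SE 0.51, adjusted p = 0.00227) in control and -1.51 (SE 0.51, adjusted p = 0.0149) in PMCA mice, and the PMCA call was lost without Y486 (-1.31, adjusted p = 0.0897) or Y490 (-1.50, adjusted p = 0.0553).

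The Rab-named regulators were lower in IP or did not pass the test. Rab11fip2, which links Rab11 to the motor myosin Vb, measured 7.12, 6.78, 7.18 and 6.87 in control input and 5.86, 5.70, 5.38 and 6.19 in control IP. The groups did not overlap, and the difference was -1.20 (SE 0.28, adjusted p = 0.000728) in control and -1.50 (SE 0.28) in PMCA mice. Rab11fip3, which binds Rab11 and Arf6, differed by -0.91 (SE 0.25) in control and -0.78 (SE 0.25, adjusted p = 0.0105) in PMCA mice, and the PMCA call was lost without Y487 (-0.68, adjusted p = 0.0695). Rab11fip4 and Rab11fip5 did not pass the test (0.32 and -0.22 in control mice). Rab3gap1 and Rab3gap2, the subunits of the Rab3 GAP, differed by -0.42 and -0.34 in control mice and were not called. Rab3ip, a GEF for Rab8, was lower in PMCA mice (-1.66, SE 0.42, adjusted p = 0.00164) and differed by -0.84 (SE 0.42, adjusted p = 0.0948) in control mice, where it was called without Y481 (-1.27, adjusted p = 0.0238).

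Paralogs can be compared within a mouse, where library scaling cancels. For each of 15 pairs the IP minus input difference of one gene was subtracted from that of the other in the same mouse, and the 8 values were tested with an exact sign-flip permutation test, two-sided, whose smallest p is 0.00781. The p-values are unadjusted, and the pairs were chosen with earlier results of these data known. How often pairs of unrelated genes reach such a p was not counted, so these p-values do not set paralogs apart. The Rab9 difference exceeded that of Rab9b in 8 of 8 mice, by 5.75 ± 1.87 (SD, n = 8, exact p = 0.00781), or by 4.03 with a prior count of 2 reads, since Rab9b had libraries at 0. The Rab6a difference exceeded that of Rab6b in 8 of 8 mice, by 3.06 ± 0.75 (exact p = 0.00781), and ranged from 1.86 to 4.17. The Rab31 difference exceeded that of Rab22a in 8 of 8 mice, and the Rab22a minus Rab31 value was -2.90 ± 0.92 (exact p = 0.00781).

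Smaller paralog differences that also ran one way in 8 of 8 mice were Rab3a minus Rab3c (-1.74 ± 0.91), Rab11fip3 minus Rab11fip4 (-1.15 ± 0.65) and Rab5a minus Rab5c (-0.65 ± 0.55), each with an exact p of 0.00781. Rab40b minus Rab40c (-2.72, exact p = 0.0156) shrank to -1.09 with a prior count of 2 reads, and Rab11fip2 minus Rab11fip5 was -1.22 (exact p = 0.0156). For Rab11a minus Rab11b the mean was -0.19 ± 0.46 (exact p = 0.227), with values from -0.69 to 0.72, and -0.32 without Y482 (exact p = 0.0156). The other 6 pairs (Rab1 and Rab1b, Rab2a and Rab2b, Rab3a and Rab3b, Rab5a and Rab5b, Rab8a and Rab8b, Rab3gap1 and Rab3gap2) had an exact p from 0.0938 to 0.602.

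**Figure D3:**
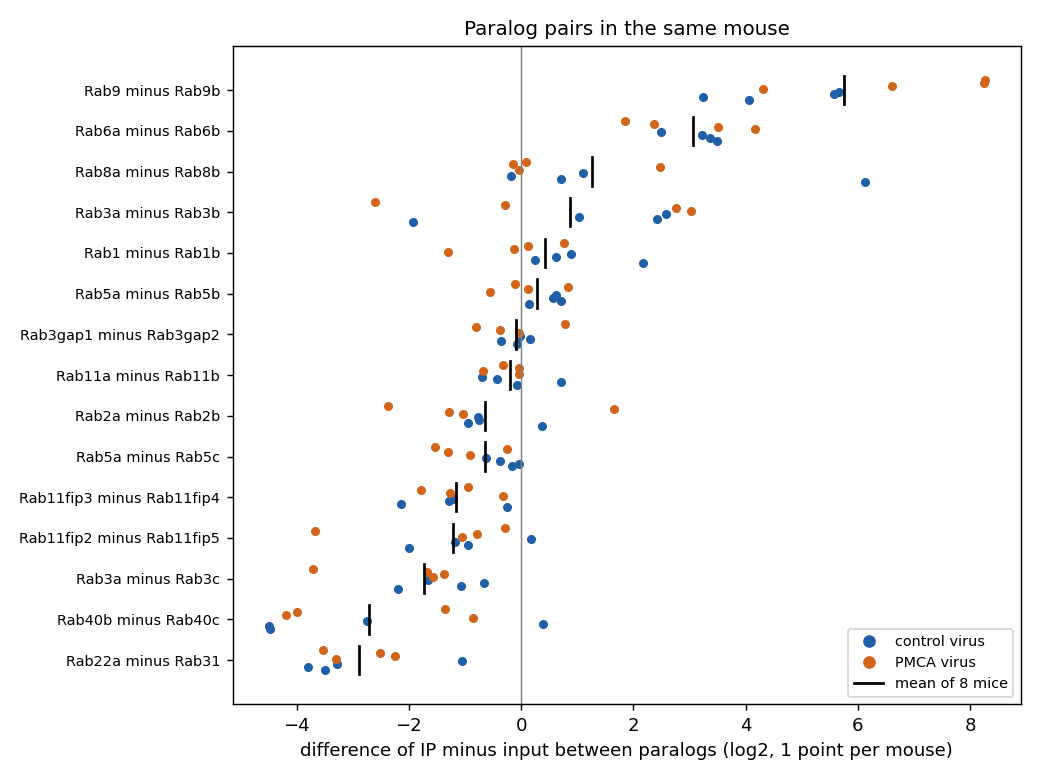
Difference of IP minus input between the members of 15 paralog pairs: the horizontal axis is in log2 units, each point is 1 mouse (blue control, orange PMCA), and the black bar is the mean of 8 mice. All 8 points of Rab9 minus Rab9b and of Rab6a minus Rab6b lie above 0, and all 8 of Rab22a minus Rab31 lie below 0.

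In the plot of paralog pairs, control and PMCA points of the same pair intermingle for most pairs, while the Rab8a minus Rab8b mean is drawn to the right by 1 control mouse, Y481.

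The genes that load, switch and read Rabs were counted in 4 lists. The Rab escort, prenylation and GDI list had 1 of 6 tested genes higher and 0 lower in control IP: Gdi2, which recycles Rabs off membranes, at 0.84 (SE 0.15, adjusted p = 5.03e-05). Over all tested genes 27.3% were higher and 26.1% lower. The effectors (14 of 34 lower) lay above the lower share, and the GAPs (3 of 27 higher) lay below the higher share. The lists were not tested against these shares. Of 21 tested GEFs, 7 were higher and 4 lower. Those with the largest differences were St5 (2.31, SE 0.49) and Rin2 (2.12, SE 0.31), a GEF of Rab5, on the higher side, and Rin1 (-3.24, SE 0.48), also a Rab5 GEF, and Madd (-1.98, SE 0.28), the Rab3 GEF, on the lower side. Of 27 tested GAPs, 3 were higher, among them Tbc1d10a (2.85, SE 0.72) and Evi5 (1.98, SE 0.18), and 6 were lower, among them Sgsm1 (-2.49, SE 0.58) and Tbc1d8 (-2.41, SE 0.31). Of 34 tested effectors, 6 were higher and 14 lower.

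The effectors on the lower side included the Rab3 and Rab27 effectors of vesicle release Rph3a (-3.23, SE 0.33), Sytl2 (-3.56, SE 0.75), Sytl5 (-2.85, SE 0.44), Rims1 (-2.10, SE 0.23) and Rims2 (-1.88, SE 0.26), and the Rab11 motor Myo5b (-2.62, SE 0.48). On the higher side Appl2, a Rab5 effector on signalling endosomes, was at 3.03 (SE 0.32, adjusted p = 3.46e-08), while its paralog Appl1 was at -0.53 (SE 0.20, adjusted p = 0.0261). Mical1 was at 2.72 (SE 0.67), and Eea1, the tether of early endosomes, at 0.59 (SE 0.23). In PMCA mice the counts were 1 higher and 0 lower of 6, 6 and 4 of 21 GEFs, 5 and 6 of 27 GAPs, and 6 and 11 of 34 effectors, against 24.9% higher and 24.8% lower of all tested genes. The genes named from these lists were chosen after their values were seen, most for the size of their difference.

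**Figure D4:**
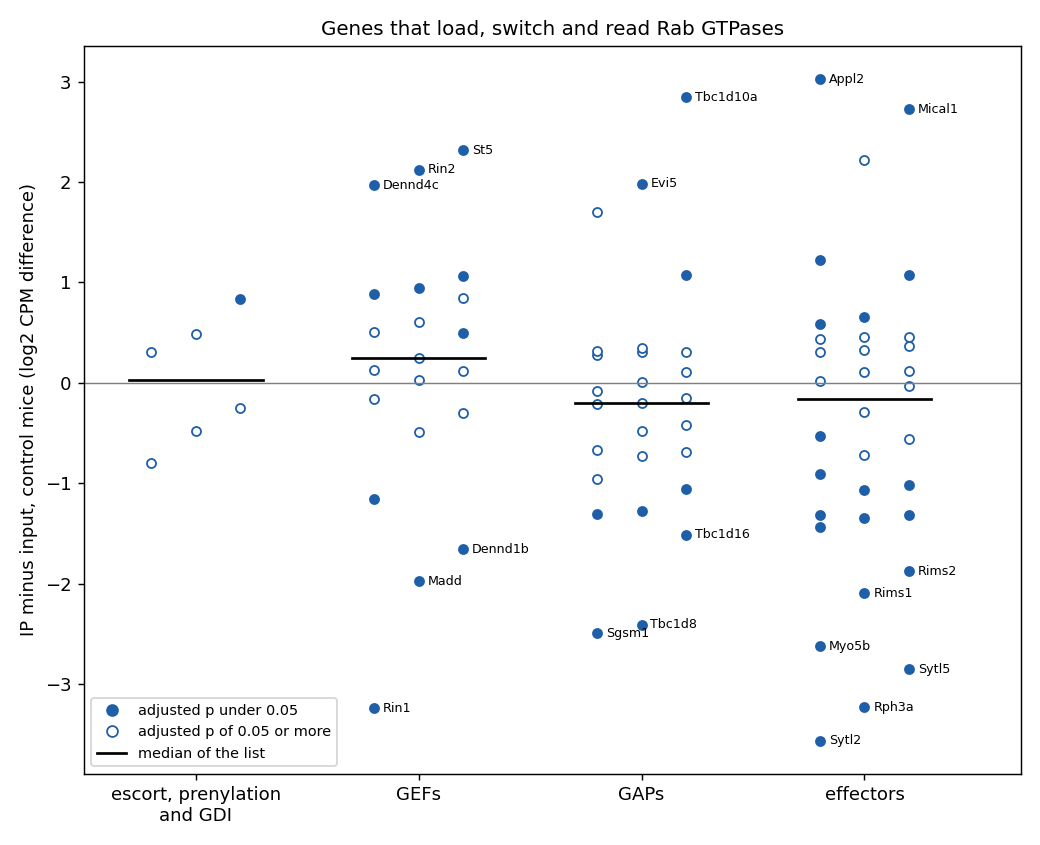
IP minus input in control mice for tested genes of the Rab cycle outside the name rule: the vertical axis is the difference of mean log2 CPM, each point is a gene, filled where the adjusted p is under 0.05, and the bar is the median of the list. Called genes at 1.5 or more from 0 are named, with Appl2, Mical1 and Tbc1d10a at the top and Sytl2, Rin1 and Rph3a at the bottom.

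The plot of Rab cycle genes shows list medians between -0.20 and 0.24, with called genes on both sides in the GEF, GAP and effector lists.

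PMCA was compared with control first in IP. Of the 40 Rab-named genes tested there, 0 were called by limma (against 0.507% of 7094 genes), and 4 had an unadjusted p under 0.05 (against 12.9% of all genes). A fit with voom on the recovered reads also called 0. The members split into 21 above and 19 below 0, with a median of 0.01. In 2 of the 40, all PMCA mice were below all control mice (against 3.74% of all genes), and in 1 all were above (against 3.13%).

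Rab33b had the smallest adjusted p. It measured 7.06, 7.15, 6.92 and 6.70 in control IP and 6.49, 6.30, 6.20 and 5.95 in PMCA IP, so every PMCA value was below every control value. The difference was -0.73 (SE 0.21, 95% interval -1.16 to -0.30, adjusted p = 0.114). Rab11a measured 6.97, 7.26, 7.02 and 6.93 in control IP and 6.51, 6.73, 6.58 and 6.22 in PMCA IP, again with no overlap. The difference was -0.53 (SE 0.20, 95% interval -0.94 to -0.13, adjusted p = 0.252). Rab18 ran the other way, at 7.47, 7.08, 6.82 and 7.02 in control and 7.55, 7.51, 7.58 and 7.53 in PMCA IP. All PMCA values were above all control values, and the difference was 0.44 (SE 0.17, adjusted p = 0.289).

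Rab13 had the largest difference by size in IP (1.45, SE 0.57, adjusted p = 0.294), and its groups overlapped, with 1 read in Y482 and 5 to 19 in the other control IP libraries. Other Rabs were measured more tightly: the 95% interval of the difference was -0.23 to 0.28 for Rab10, -0.19 to 0.41 for Rab6a and -0.56 to 0.01 for Rab31. A p that misses the threshold does not show that the treatments act alike. The summed microglial markers were 98.3 to 177 CPM in control IP and 190 to 552 in PMCA IP, with 2 of 5 tested markers called higher, and the summed astrocyte markers were 84430 to 109100 in PMCA IP, overlapping control IP. Their part in the Rab values was not tested.

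**Figure D5:**
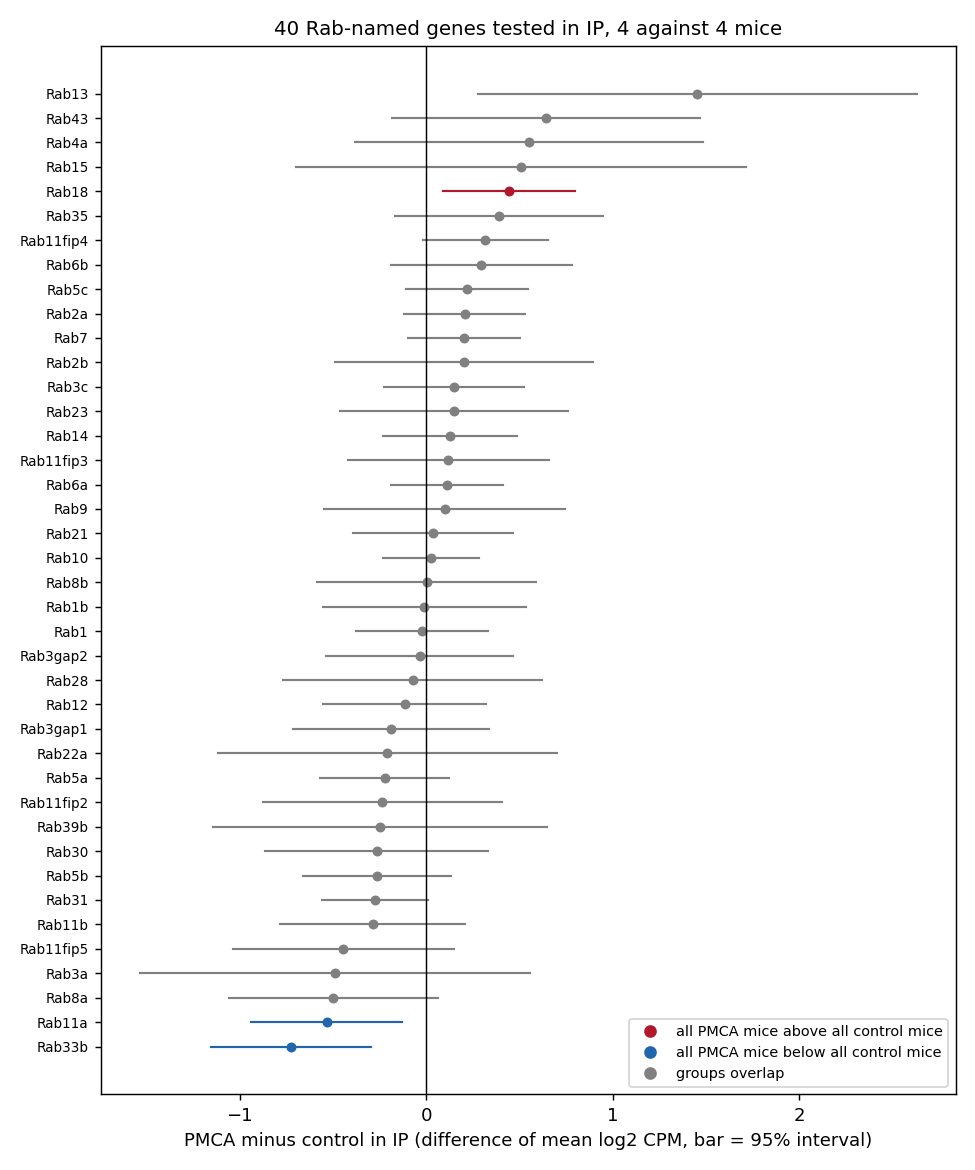
PMCA minus control in IP for the 40 tested Rab-named genes: the horizontal axis is the difference of mean log2 CPM with its 95% interval (4 against 4 mice). Rab33b and Rab11a, at the bottom, have all PMCA mice below all control mice, Rab18 has all above, and no gene passed an adjusted p of 0.05.

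The plot of treatment differences shows intervals that widen for genes with few reads, such as Rab13, Rab3a and Rab15.

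In input, 0 of 40 tested Rab-named genes were called by limma (against 0.0339% of 5895 genes), 0 had an unadjusted p under 0.05, and voom called 0. In none of these 40 did the groups stand apart, against 1.48% of all genes with PMCA above and 1.05% with PMCA below. Outside the 40, 2 genes with few reads did stand apart: Rab43, with 14 reads in control input (1.68 to 4.43) and 42 in PMCA input (4.47 to 5.46), and Rab11fip1, with 6 and 0 reads. The share of all genes below the filter that stand apart was not counted. Rab11a differed by -0.15 (SE 0.26) in input, with values of 6.41 to 7.30 in control and 6.41 to 7.53 in PMCA mice. The smallest p among the members belonged to Rab1 (0.62, SE 0.30), Rab11fip5 (-0.61, SE 0.36) and Rab1b (-0.49, SE 0.33), all with an adjusted p of 0.9996. For Rab1 and Rab11fip5 the Y481 input was the lowest control value, at 5.35 for both.

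The difference of IP minus input between PMCA and control mice was tested directly. It was called for 0 of the 48 Rab-named genes by limma (against 0.0371% of 8091 genes), 3 had an unadjusted p under 0.05 (against 5.28%), and voom called 0. The 3 were Rab9b (-2.50, SE 1.06), Rab18 (0.67, SE 0.29) and Rab33b (-1.08, SE 0.51), each with an adjusted p of 0.913. The Rab9b value rests on 2 PMCA IP reads, with 3 of 4 libraries at 0, and was -0.92 with a prior count of 2 reads. For Rab11a the value was -0.38 (SE 0.34, 95% interval -1.08 to 0.31). None of the 4 lists of Rab cycle genes had a gene called in the treatment comparisons or in the interaction, and the smallest adjusted p among them in IP was 0.0941, for the GEF Dennd5a (-0.42, SE 0.12).

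Of the 59 genes, 11 had too few reads for the 16-library test: Rab3d, Rab3il1, Rab4b, Rab10os, Rab11fip1, Rab26, Rab27a, Rab29, Rab32, Rab33a and Rab34. Their summed reads per group ran from 0 to 38. Rab3il1, a GEF of Rab8 and Rab3, had 3 reads in control input and 28 in control IP, a ratio of 6.02 after scaling (counting interval 1.86 to 30.9), and 11 and 20 in PMCA mice, a ratio of 1.41 (interval 0.642 to 3.25). Rab29, of lysosomes and the Golgi, had 2 reads in PMCA input and 18 in PMCA IP, a ratio of 6.96 (interval 1.67 to 61.8), against 7 and 13 in control mice. Counting intervals cover counting error only, not the spread between mice.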

How the data were processed

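The deposited values were log2 CPM per gene and library, made by the authors for each library without pooling. The submitters' processing notes name mm10, STAR, HTSeq, edgeR and limma, and give no settings. Whether reads matching several places were counted is not given in the sources used here, so close paralogs may share reads. Per the labels, libraries were stranded and depleted of ribosomal RNA. Undoing the log2 CPM scale with a prior count of 0.25 gave whole reads for 100% of values (within 0.01 reads). The listed genes each had 5 or more reads in all.

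Tests used limma 3.58.1 (trend, robust moderation by statmod 1.5.0) in R 4.3.3 on the deposited log2 values. A gene was tested if 4 or more fitted libraries reached the CPM worth 10 reads at the median library size, and its reads summed to 15 or more. p-values were adjusted by Benjamini-Hochberg over all genes tested. IP was compared with input and the interaction tested in 1 model of 16 libraries, and treatments within the 8 libraries of a fraction. The scripts were tested on simulated data. Input and IP of a mouse are paired by the labels, and their deviations from group means correlated with r = 0.04 to 0.32 over 1677 genes. No 2 libraries of a group were duplicates.

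The genes given in full were Rab11a, the 2 highest and 2 lowest members of each role by control IP minus input, the 3 with the smallest p in each treatment or interaction test, and the pairs with the smallest exact p or a difference over 2 log2 units. Other members and Rab cycle genes were named after their values were seen. The planned naming by reads per kilobase was not used, since transcript lengths were not at hand. The members, role lists and pairs were chosen with earlier results of these data known. Members were placed on GRCm38.p6 with RefSeq (58 of 59 by symbol; Rab1 had none). Alternatives were other filters, scalings, prior counts, voom, thinned reads, another variance model, each mouse left out, and the mouse as a block.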

Additional observations from a re-analysis of the deposited data

Results flagged for a closer look

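In 132 groups of 4 libraries, from 33 Rab-named genes described in full, 9 held a library that stood apart by Dixon's criterion. Chance flags about 1 in 20 groups. In control input, Y481 was low for Rab1 (5.35, others 6.78 to 7.06), for Rab11fip5 (5.35, others 6.25 to 6.33) and for Rab8a (-0.66, the value of 0 reads, others 5.26 to 5.54). Y483 was low for Rab7 (7.23, others 7.36 to 7.37), and Y485 was high for Rab3c (9.32, others 9.13 to 9.16). In PMCA input, Y489 was low for Rab18 (6.03, others 6.61 to 6.73). In control IP, Y483 was high for Rab40b (3.21, others at -0.66). In PMCA IP, Y486 was high for Rab9b (1.93, others at -0.66) and Y490 was low for Rab15 (3.37, others 4.68 to 4.79). For Rab40b and Rab9b the other libraries of the group had 0 reads, so any library with reads would be flagged. Those flags rest on 4 reads and 2 reads.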

How the results depend on the processing

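The number of Rab-named genes that differed between IP and input was 22 to 24 in control mice (24 with all mice) and 21 to 25 in PMCA mice (23 with all) when each mouse was left out. In those fits 24.4% to 27.7% of all tested genes were higher and 23.2% to 26.3% lower in control mice. In PMCA mice 21.2% to 26.7% were higher and 21.6% to 25.8% lower. With reads thinned to the shallowest library, 35 Rab-named genes were tested and 15 were called in PMCA mice. Of all 5575 genes tested there, 27.5% were higher and 27% lower. With the mouse as a replicate block, 24 were called in control, 24 in PMCA mice and 0 in the interaction. Under that model 27.6% of all tested genes were higher and 25.7% lower in control, and 25% and 24.4% in PMCA mice. Over the test values printed for Rab-named genes and pairs (Rab cycle genes were not included), 1439 checks kept direction and side of the threshold, 28 fell short of it, 19 newly passed it and 14 turned sign. No called value turned sign. Calls were lost for Rab5b, Rab23 and Rab30 in control and Rab5a, Rab7, Rab9, Rab11fip3 and Rab40c in PMCA mice. With total-read scaling, IP minus input in control mice was -0.15 for Rab11a, -0.025 for Rab11b and -0.0145 for Rab14, and with voom -0.0074 for Rab11a. With each mouse left out it ran from -0.10 to 0.20 for Rab11a, -0.18 to 0.38 for Rab35 and -0.24 to 0.0025 for Rab6a in control mice, and from -0.33 to 0.23 for Rab11b in PMCA mice. The Rab10 treatment difference in IP ran from -0.018 to 0.11, and Rab3gap1 minus Rab3gap2 from -0.21 to 0.0122. Rab3a minus Rab3b was -0.67 with a prior count of 2 reads. The same prior moved IP minus input in control mice to -2.49 for Rab3b and -2.55 for Rab40b, and in PMCA mice to 2.37 for Rab13 and -3.30 for Rab9b, all still called. Each of these genes had libraries at 0 reads in a group compared, and the value of such a library is set by the prior. Other contributions to the shift were not tested. The Rab7 difference in PMCA mice was 0.48 (adjusted p = 0.0579) with total-read scaling. In IP, the Rab33b treatment difference stayed between -0.81 and -0.63 (adjusted p from 0.0853 to 0.660), and that of Rab11a between -0.60 and -0.44. The number of all genes called there ranged from 0 (without trend and robust moderation) to 50 (without Y487), against 36, and no Rab-named gene was among those called in any of these fits. Genes under about 10 reads per library are limited by depth.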
